A study of Homo sapiens with 9 samples.

Results

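The cytosolic heat shock genes described here are 10 of the 36018 genes counted in each library: HSPA6, HSPA1A, HSPA1B, HSPA8, HSPH1, HSP90AA1, DNAJB1, HSPB1, BAG3 and HSF1. They were chosen by name, and the set was built around HSPA6 because that gene was among those with the largest rise in low-glucose-tolerant cells. The levels of the 10 genes in low-glucose-tolerant libraries are therefore given as a description, with no test, and tests of the members are confined to the comparison of CoCl2-tolerant cells with control. RNA was sequenced in 9 libraries that carry the label HCT-15, a human colorectal adenocarcinoma cell line long in use, and the identity of the cells was not checked beyond the markers given below. The 3 control libraries came from untreated cells of wild-type (WT) genotype. The 3 CoCl2-tolerant and the 3 low-glucose-tolerant libraries came from WT cells labelled with those treatments. These lines had been selected by growth under stepwise increasing stress of the named kind until they tolerated it. All groups share RPMI1640 medium with 10% fetal bovine serum, and CoCl2 (cobalt chloride) is a salt that mimics hypoxia in cultured cells. Each tolerance is represented by 1 derived line, so tolerance and anything else that changed while the line was made cannot be told apart. Nothing in the labels ties the 3 libraries of a group to separate cultures. The p-values therefore describe the spread among these libraries, and that spread may be technical. The brefeldin A line of the study was not analysed here.

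Cytosolic chaperones keep newly made and damaged proteins from aggregating and help them to fold. HSP70 proteins bind exposed hydrophobic stretches in an ATP-driven cycle, J-domain proteins (HSP40) deliver clients and trigger ATP hydrolysis, and nucleotide exchange factors such as HSP110 and BAG proteins release them, while HSP90 completes the folding of kinases, receptors and other clients. The transcription factor HSF1 is released from chaperones when unfolded proteins accumulate, trimerises and binds heat shock elements, which are inverted repeats of the unit GAA, in the promoters of these genes. HSPA8 is the constitutive HSP70, HSPA1A and HSPA1B are its stress-inducible relatives, and HSPA6 is an inducible HSP70 that is nearly silent in unstressed human cells and has no counterpart in mouse.

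The promoters of the members are shown first. The choice by name did not search for the heat shock element, which is found in some of them and not in others. It did name known heat shock genes, so the choice is not independent of the element. RefSeq windows from 250 bases before to 50 bases after a start site (build GRCh38.p14) were found for 9 of the 10 members, and HSF1 was not in the table. Each window was searched for 3 alternating units, GAANNTTCNNGAA or TTCNNGAANNTTC. These letters are each other's reverse complement, so both strands were covered, and neighbouring matches can overlap. Capitals mark bases within a match that is exact or differs at 1 of the 9 fixed bases, and positions count from 0 at the first transcribed base. The HSPA6 stretch is chr1:161524335-161524498 (plus strand), the HSPA1A stretch chr6:31815417-31815469 (plus) and the HSPA1B stretch chr6:31827613-31827665 (plus). The upstream HSPA8 stretch is chr11:123062346-123062374 (minus strand) and the one nearer to the start chr11:123062171-123062199 (minus). For HSP90AA1 the stretch is chr14:102087104-102087133 (minus, the second of 2 start sites), for DNAJB1 chr19:14518417-14518494 (minus, the second of 3 start sites) and for HSPB1 chr7:76302471-76302523 (plus).
HSPA6: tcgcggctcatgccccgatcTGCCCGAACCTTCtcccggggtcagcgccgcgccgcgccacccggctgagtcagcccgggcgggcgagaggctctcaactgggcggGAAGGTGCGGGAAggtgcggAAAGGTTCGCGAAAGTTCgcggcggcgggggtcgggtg
HSPA1A: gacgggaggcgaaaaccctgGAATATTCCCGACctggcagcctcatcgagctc
HSPA1B: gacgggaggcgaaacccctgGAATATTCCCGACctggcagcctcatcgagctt
HSPA8 upstream: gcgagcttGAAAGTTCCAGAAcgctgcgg
HSPA8 near the start: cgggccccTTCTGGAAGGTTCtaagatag
HSP90AA1: cTTCCGGAAGGTTCGGGAGGCTTCTGGAAa
DNAJB1: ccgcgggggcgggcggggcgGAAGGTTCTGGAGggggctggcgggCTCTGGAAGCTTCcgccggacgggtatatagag
HSPB1: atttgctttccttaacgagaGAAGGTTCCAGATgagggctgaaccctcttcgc

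HSPA6 had 4 matches with at most 1 different base, against 2 in HSPA8, while HSPA8 had more exact ones. Its window held an exact element from -74 to -62, which overlapped a near match from -79 to -67, and further near matches from -99 to -87 and from -185 to -173. HSPA1A and HSPA1B had a single near match each, from -106 to -94 and from -105 to -93, with the same letters in capitals. HSPA8 had 2 exact elements, from -230 to -218 and from -55 to -43. HSP90AA1 had an exact element from -88 to -76 that ran on into 3 overlapping near matches. DNAJB1 and HSPB1 had near matches without an exact one.

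An exact match was present in 3 of 9 members (HSPA6, HSPA8 and HSP90AA1), and in 0.608% of the 27305 genes with a RefSeq promoter window. A match with at most 1 different base was present in 7 of 9 members and in 7.60% of all genes. For the shorter form with 2 units, GAANNTTC or TTCNNGAA, the counts were 7 of 9 members and 16.2% of all genes. HSPH1 and BAG3 had no match of any of these forms, which says only that these letters are not in their windows. Because the members were named as heat shock genes, their shares of matches follow in part from the choice. They are descriptions and were not tested against the shares of all genes. A TATA box (TATAAA or TTTATA) was found in HSPA1A and HSPA1B, from -30 to -25 and from -29 to -24, and in 14% of all genes, and a CCAAT box (CCAAT or ATTGG) in 5 of 9 members and 39.7% of all genes.

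**Figure D1:**
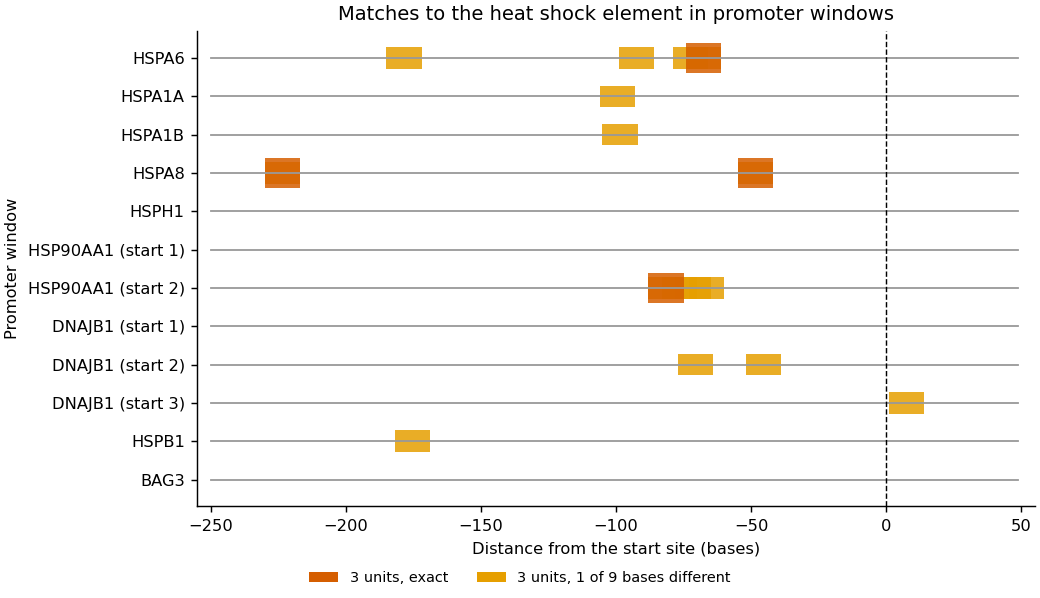
Positions of heat shock element matches in the RefSeq promoter windows of 9 members, by distance from the start site in bases (dashed line at 0). Each grey line is a window, dark orange boxes are exact matches of 3 units and light orange boxes are matches with 1 of 9 bases different. HSPA6, HSPA8 and the second start site of HSP90AA1 carry exact matches, and HSPH1 and BAG3 carry none of either kind.

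Depth was 25178615 to 32674687 counts per library, so that 3 counts were worth 0.0918 to 0.119 CPM (reads of a gene relative to its library's total) before scaling. Low-glucose-tolerant replicate 2 stood apart from replicates 1 and 3, at 53.4 and 70.6 chi-squared units per degree of freedom in pairs with them. The pair of replicates 1 and 3 gave 26.0. CoCl2-tolerant replicate 1 stood apart from replicates 2 and 3 of its group, at 31.3 and 21.6, while the pair of replicates 2 and 3 gave 8.1. Of 14 intestinal epithelial markers counted, 10 were under 1 CPM in every library, among them CDX2 and VIL1, while EPCAM was present at 21.7 CPM or more on average in each group. The summed level of the 4 simple epithelial markers KRT8, KRT18, KRT19 and CDH1 spanned 1315 to 1344 CPM over the control libraries, 1359 to 1657 CPM over the CoCl2-tolerant and 2463 to 3351 CPM over the low-glucose-tolerant libraries. The 7 fibroblast markers summed to 1832 to 1880, 242 to 273 and 25.4 to 35.6 CPM, of which COL1A1 alone made up 1855, 250 and 21.5 CPM on average, and 3 of the 7, among them LUM and DCN, were under 1 CPM in every library. The share of counts from ribosomal protein genes of the cytosol was 3.52 to 3.67% in control, 4.29 to 5.35% with CoCl2 tolerance and 7.25 to 10.8% with low-glucose tolerance. The part of these differences in the results below was not tested. In bulk RNA, fewer expressing cells and less RNA per cell cannot be told apart.

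HSPA6 was the member with the widest range of levels. It lies at chr1:161524540-161526910 on the plus strand (GRCh38). The control libraries held 3, 10 and 11 HSPA6 counts, or 0.0975, 0.294 and 0.349 CPM scaled by trimmed means of M values (TMM). The CoCl2-tolerant libraries held 6, 9 and 13 counts (0.241, 0.315 and 0.459 CPM), and the low-glucose-tolerant libraries 781, 1205 and 1275 counts (26.5, 41.3 and 46.1 CPM). Control and CoCl2-tolerant libraries overlapped at a level of a few counts, and every low-glucose-tolerant library lay far above all 6 of them. Summed over libraries, the ratio of low-glucose-tolerant to control was 152, with a 95% interval of 102 to 237 that covers counting error only. The fitted log2 fold change was 7.23 ± 0.31 (SE) against control and 6.78 ± 0.30 against CoCl2-tolerant cells. A log2 fold change of at least 3 against control was seen in 1.12% of the 17902 genes tested. HSPA6 passed the filter on low counts only through the low-glucose-tolerant libraries, and when any 1 of those libraries was left out its log2 fold change against control was 7.07 to 7.44.

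HSPA6 has a near copy, HSPA7, an unprocessed pseudogene on the same chromosome (chr1:161606291-161608217), and 27.6% of the 100-base windows of HSPA6 exons occur unchanged in HSPA7. HSPA7 had 8 counts in the control, 7 in the CoCl2-tolerant and 123 in the low-glucose-tolerant libraries together. How the authors' counting treated reads that map to several places is not given in the sources used here, so the split between these genes is uncertain. With the counts of HSPA6 and HSPA7 summed, the log2 fold change against control was 6.87.

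The stress-inducible pair HSPA1A and HSPA1B, neighbours on chromosome 6, followed the same order of groups. HSPA1A stood at 4.94, 6.70 and 6.48 CPM in control, 7.22, 5.71 and 5.30 CPM in CoCl2-tolerant and 36.9, 75.8 and 65.4 CPM in low-glucose-tolerant libraries. HSPA1B stood at 1.62, 1.65 and 1.68 CPM, at 1.81, 2.45 and 2.58 CPM, and at 23.3, 27.1 and 33.0 CPM in the same order of groups. For both genes all 3 low-glucose-tolerant libraries lay above the other 6, and replicate 1 was the lowest of them. Against control, the log2 fold change was 3.29 ± 0.24 for HSPA1A and 4.07 ± 0.18 for HSPA1B.

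The genes of this pair can hardly be separated by short reads. Of the 100-base windows of HSPA1A exons, 67.3% occur unchanged in HSPA1B, and 36.5% of the HSPA1B exon bases also overlap the gene AL671762.1 on the same strand. With the counts of HSPA1A and HSPA1B summed, the log2 fold change against control was 3.50. HSPA1L, the third HSP70 gene of this cluster, which is mainly known from testis, shared no such window with either. It was far lower, at 0.611 ± 0.0515 CPM in control, 1.09 ± 0.432 CPM in CoCl2-tolerant and 1.58 ± 0.525 CPM in low-glucose-tolerant libraries (SD, n = 3), and rose between control and low-glucose-tolerant cells (log2 fold change 1.35 ± 0.33, edgeR adjusted p = 0.00233).

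HSPA8, the constitutive HSP70, was among the most abundant members in every group. Its levels were 858, 797 and 864 CPM in control, 939, 876 and 875 CPM in CoCl2-tolerant and 1567, 1529 and 1781 CPM in low-glucose-tolerant libraries. The low-glucose-tolerant libraries lay above the others without overlap, at a log2 fold change of 0.95 ± 0.10 against control. HSPH1, the HSP110 that exchanges nucleotide on HSP70 and works with it to dissolve aggregates, did not share that pattern. It stood at 110, 101 and 108 CPM in control, 75.6, 91.8 and 91.7 CPM in CoCl2-tolerant and 114, 118 and 105 CPM in low-glucose-tolerant libraries. Control and low-glucose-tolerant libraries overlapped, and the CoCl2-tolerant libraries lay below both. The HSPH1 log2 fold change of low-glucose-tolerant against control was 0.08 ± 0.11, and its sign turned to -0.02 when library totals were used in place of TMM, or when the fit was limited to genes of 5 CPM or more in 3 libraries (the stricter filter).

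**Figure D2:**
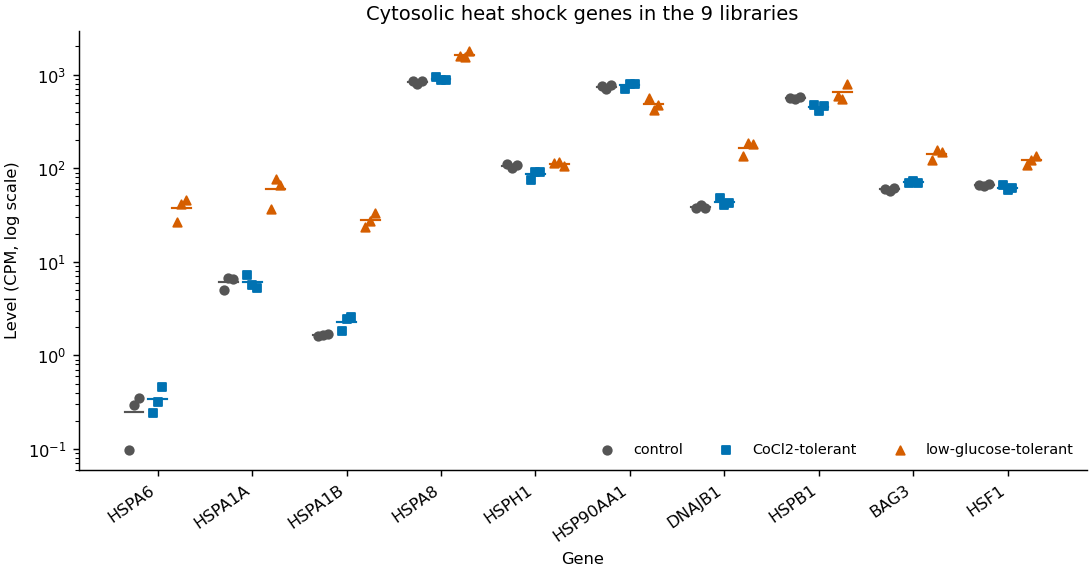
Level of each member in the 9 libraries in CPM (TMM-scaled, log axis), with 1 point per library and a short line at the group mean. HSPA6 is under 0.5 CPM in all 6 control and CoCl2-tolerant libraries and at 26.5 to 46.1 CPM in low-glucose-tolerant libraries, whereas HSP90AA1 is lowest there.

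Levels of HSPA6, HSPA1A and HSPA1B relative to HSPA8 were compared within libraries, per kilobase of exon, which does not depend on the scaling between libraries. The length used is that of all annotated exons of a gene together. It was 4849 bases for HSPA8 and 2371 to 2521 bases for HSPA6, HSPA1A and HSPA1B. The size of a share between genes therefore depends on these lengths, which are the same in every group. HSPA6, HSPA1A and HSPA1B together amounted to 1.51 to 2.11% of the HSPA8 level in control libraries. This share was 1.86 to 1.92% with CoCl2 tolerance and 10.9 to 18.6% with low-glucose tolerance. Of that inducible sum, HSPA6 made up 1.54 to 4.30% in control and 2.72 to 5.78% in CoCl2-tolerant libraries, which overlapped, and 29.7 to 33.0% in low-glucose-tolerant libraries. HSPA8 thus stayed above the sum of HSPA6, HSPA1A and HSPA1B in every library. The 10 members together made up 0.242 to 0.253% of all counts in control libraries, 0.237 to 0.250% with CoCl2 tolerance and 0.313 to 0.347% with low-glucose tolerance.

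HSP90AA1, the stress-inducible cytosolic HSP90, was the only member with low-glucose-tolerant libraries wholly below control. It stood at 765, 704 and 769 CPM in control, 709, 801 and 791 CPM in CoCl2-tolerant and 563, 420 and 474 CPM in low-glucose-tolerant libraries. Its low-glucose-tolerant libraries all lay below the other 6, at a log2 fold change of -0.62 ± 0.12 against control. HSP90AB1, the constitutive cytosolic HSP90 and no member of the set, moved the other way. It rose from 1547 ± 65.9 CPM in control to 2101 ± 78.6 CPM in low-glucose-tolerant cells (log2 fold change 0.44 ± 0.10, edgeR adjusted p = 0.000889) and was at 1555 ± 8.38 CPM in CoCl2-tolerant cells. The ratio of HSP90AA1 to HSP90AB1 per kilobase was 0.272 to 0.275 in control libraries, 0.260 to 0.291 with CoCl2 tolerance and 0.115 to 0.156 with low-glucose tolerance. The 3 low-glucose-tolerant ratios lay below all others, and the other groups overlapped. The size of this ratio rests on exon lengths of 5248 bases for HSP90AA1 and 2980 bases for HSP90AB1.

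**Figure D3:**
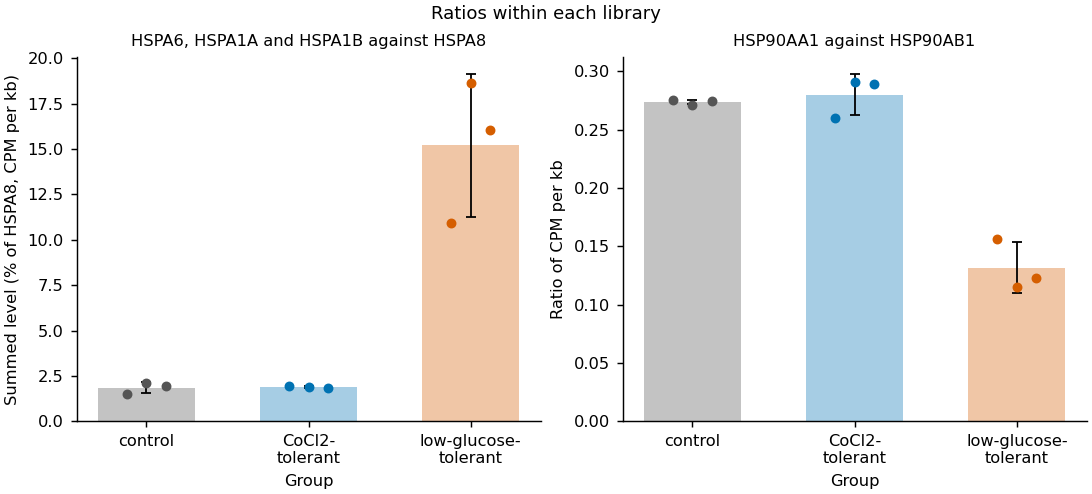
Ratios formed within each library, with bars at the group mean, error bars of 1 SD (n = 3) and 1 point per library. Left, the summed level of HSPA6, HSPA1A and HSPA1B as a percent of HSPA8 (CPM per kilobase), at 10.9 to 18.6% in low-glucose-tolerant libraries and at most 2.11% in the others. Right, HSP90AA1 relative to HSP90AB1, at 0.115 to 0.156 in low-glucose-tolerant libraries and at least 0.260 in the others.

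DNAJB1, the major inducible J-domain partner of HSP70, was the most elevated member outside the HSP70 genes. It stood at 37.9, 40.2 and 37.6 CPM in control, 47.8, 40.1 and 42.5 CPM in CoCl2-tolerant and 134, 184 and 179 CPM in low-glucose-tolerant libraries, a log2 fold change of 2.10 ± 0.13 of low-glucose-tolerant against control. BAG3, which couples HSP70 to small heat shock proteins and to selective autophagy, stood at 60.2, 57.4 and 60.8 CPM in control, 68.7, 73.2 and 70.3 CPM in CoCl2-tolerant and 123, 158 and 148 CPM in low-glucose-tolerant libraries. The 3 groups of BAG3 were separate, in the order control, CoCl2-tolerant, low-glucose-tolerant, an order also seen without overlap for HSPA1B and HSPA8. The BAG3 log2 fold change was 1.26 ± 0.11 of low-glucose-tolerant against control and 1.01 ± 0.11 against CoCl2-tolerant cells.

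HSPB1 (HSP27), a small heat shock protein that holds unfolded proteins without ATP, stood at 566, 552 and 581 CPM in control, 476, 408 and 459 CPM in CoCl2-tolerant and 586, 553 and 800.4 CPM in low-glucose-tolerant libraries. Control and low-glucose-tolerant libraries overlapped for HSPB1, with replicate 3 the highest. The log2 fold change between them was 0.19 ± 0.13, and 0.02 without that replicate. HSF1, the regulator itself, stood at 65.5, 64.8 and 67.2 CPM in control, 65.8, 58.8 and 61.0 CPM in CoCl2-tolerant and 107, 122 and 134 CPM in low-glucose-tolerant libraries. Its low-glucose-tolerant libraries lay above all others, at a log2 fold change of 0.88 ± 0.11 against control. The related factor HSF2 was at 21.7 ± 1.58, 21.1 ± 2.95 and 18.4 ± 2.49 CPM in the same order of groups and did not pass in low-glucose-tolerant against control cells (log2 fold change -0.24 ± 0.14, edgeR adjusted p = 0.133), with adjusted p of 0.0390 under the stricter filter and 0.0438 without low-glucose-tolerant replicate 1.

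Over the set, 7 of 10 members had low-glucose-tolerant libraries wholly above control, 1 (HSP90AA1) wholly below and 2 (HSPH1 and HSPB1) overlapping. Over all 17902 genes tested, 36.4% lay wholly above control and 36.9% wholly below. The median log2 fold change of the 10 members was 1.11, against -0.01 over all genes. Because the set was built on this contrast, nothing is read from that count or that median. Against CoCl2-tolerant cells, 9 members lay wholly above and 1 wholly below, beside 63.1% of all genes (31.5% above and 31.7% below). This comparison uses the same low-glucose-tolerant libraries, so nothing is read from its count either. The log2 fold changes of that comparison were 3.29 for HSPA1A, 3.60 for HSPA1B, 1.93 for DNAJB1, 0.86 for HSPA8, 0.97 for HSF1, 0.53 for HSPB1, 0.38 for HSPH1 and -0.66 for HSP90AA1. Within the low-glucose-tolerant group, replicate 1 was the lowest library for 6 members, replicate 2 for 3 and replicate 3 for 1. Without replicate 2, the library that stood apart, the log2 fold changes against control were 7.17 for HSPA6, 3.09 for HSPA1A, 4.10 for HSPA1B, 1.003 for HSPA8, 0.05 for HSPH1, -0.52 for HSP90AA1, 2.03 for DNAJB1, 0.30 for HSPB1, 1.195 for BAG3 and 0.88 for HSF1, with the same signs as with it.

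**Figure D4:**
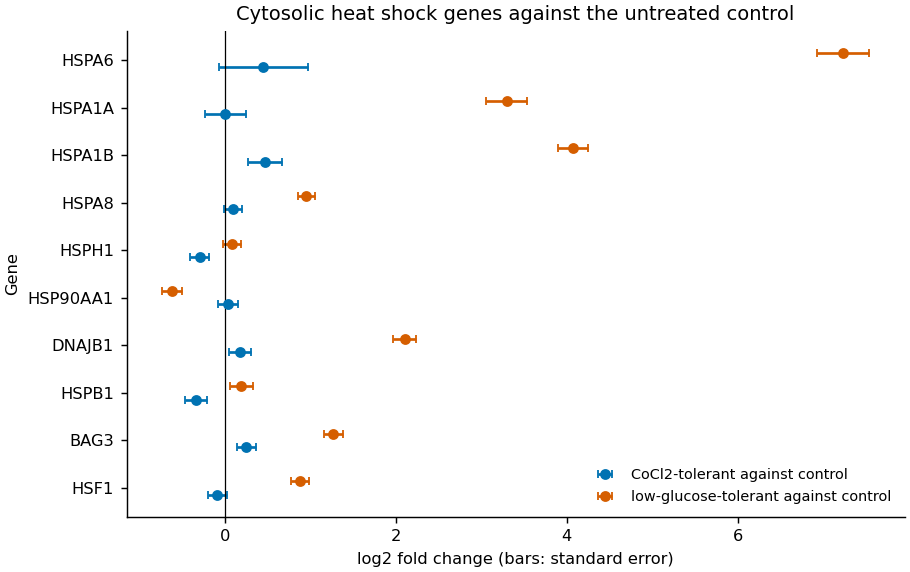
Log2 fold change of each member against control in CoCl2-tolerant and low-glucose-tolerant cells, with bars of 1 SE from the fit of all 9 libraries. Low-glucose-tolerant values run from -0.62 (HSP90AA1) to 7.23 (HSPA6), and CoCl2-tolerant values lie between -0.34 (HSPB1) and 0.47 (HSPA1B); the comparisons share the control libraries.

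The order of levels per kilobase of exon differed most between groups at its lower end. The order between genes rests on the length of all annotated exons together, such as 8390 bases for HSPH1 and 2371 for HSPA6. In control, HSPB1 led with 347 CPM per kilobase, followed by HSPA8 (173), HSP90AA1 (142), BAG3 (21.7), HSPH1 (12.7), HSF1 (12.4), DNAJB1 (10.5), HSPA1A (2.43), HSPA1B (0.655) and HSPA6 (0.104). Each pair of neighbours was separate in all libraries apart from HSPH1 and HSF1, which overlapped. CoCl2-tolerant cells kept HSPB1, HSPA8, HSP90AA1 and BAG3 at the head and HSPA1A, HSPA1B and HSPA6 at the end, with DNAJB1, HSF1 and HSPH1 between them, of which DNAJB1 and HSF1 overlapped. In low-glucose-tolerant cells HSPB1 (396) and HSPA8 (335) overlapped, as did BAG3 (52.1) and DNAJB1 (45.1), HSPA1A (23.9) and HSF1 (22.8), HSPA6 (16.0) and HSPH1 (13.4), and HSPH1 and HSPA1B (11.0). HSPA6, the last member in control, thus overlapped with HSPH1 in low-glucose-tolerant cells.

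Likeness to HSPA6 was measured as Pearson's r of log2 CPM over the 9 libraries, which share depth, scaling and 3 groups. Among the 5 most similar genes with at least 5 CPM in their highest group were LYPD1 (0.996), NECAP1 (0.996), TPRN (0.995) and the member HSPA1B (0.993). LYPD1 stood at 3.12 ± 0.199 CPM in control and 31.6 ± 1.78 CPM in low-glucose-tolerant cells, and NECAP1 at 19.4 ± 1.12 and 31.6 ± 0.873 CPM (SD, n = 3). An r over 0.99 was reached by 18 of 11826 genes and an r over 0.9 by 16.9% of them, since any gene that separates the low-glucose-tolerant libraries from the others scores high. Among the other members r was 0.987 for DNAJB1, 0.984 for HSPA1A, 0.977 for HSPA8, 0.976 for BAG3, 0.971 for HSF1, 0.603 for HSPB1, 0.538 for HSPH1 and -0.93 for HSP90AA1.

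In CoCl2-tolerant against control cells, the comparison that the choice of members did not use, the set moved little. By edgeR's quasi-likelihood test, 0 of 10 members (9 without HSPA6, which did not pass the filter in these libraries alone) rose and 1 fell at an adjusted p under 0.05, where 36.1% of all genes passed, 17.9% higher and 18.2% lower. DESeq2 gave the same counts. At an unadjusted p under 0.05 there were 2 higher members and 2 lower ones. The gene that fell was HSPH1, with a log2 fold change of -0.30 ± 0.11 (edgeR adjusted p = 0.0430) and lower levels in all 3 CoCl2-tolerant libraries than in any control library. That call was lost without any 1 control or CoCl2-tolerant library, and also with library totals, with no filter and with a replicate block. The adjusted p lay between 0.0138 and 0.158 over all alternatives. Without CoCl2-tolerant replicate 1, which stood apart, the 1 member called was HSPA1B, which was higher (log2 fold change 0.61, edgeR adjusted p = 0.0363). Reads of HSPA1B can hardly be separated from those of HSPA1A. With the counts of both genes summed and all libraries kept, the log2 fold change was 0.12 (edgeR adjusted p = 0.659).

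HSPA6, which was tested here only because it passed the filter through the low-glucose-tolerant libraries, showed no detectable difference at this depth, with 28 counts in CoCl2-tolerant and 24 in control libraries. The ratio was 1.37 with a 95% counting interval of 0.768 to 2.47 (log2 fold change 0.45 ± 0.53, edgeR adjusted p = 0.531). HSPA1A had a log2 fold change of 0.00 ± 0.24 (adjusted p = 0.993) and HSPA1B of 0.47 ± 0.20 (adjusted p = 0.0778). The split of counts between these genes is uncertain, and their sum did not pass. All HSPA1B libraries of CoCl2-tolerant cells lay above control. BAG3 (0.25 ± 0.11, adjusted p = 0.0902) also lay above control in 3 of 3 libraries, and HSPB1 (-0.34 ± 0.13, adjusted p = 0.0599) below it in 3 of 3. These 3 genes missed the threshold, but each passed it under some alternatives, with the adjusted p ranging over 0.0363 to 0.240 for HSPA1B, 0.0105 to 0.250 for BAG3 and 0.00337 to 0.185 for HSPB1. HSPA8 (0.09 ± 0.10, adjusted p = 0.495), DNAJB1 (0.17 ± 0.13, adjusted p = 0.317), HSP90AA1 (0.04 ± 0.12, adjusted p = 0.817) and HSF1 (-0.09 ± 0.11, adjusted p = 0.544) overlapped with control or, for HSPA8, lay just above it. The libraries were separate for 3 higher and 2 lower members, beside 57.2% of all genes (28.3% higher and 28.8% lower), and the median log2 fold change was 0.07 against 0.01 over all genes.

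The other genes of the chaperone network, not all of them cytosolic, were taken from 8 lists by function. Of these 81 genes, 79 were in the files and 73 were tested. In low-glucose-tolerant against control cells 38 rose, 17 fell and 18 did not pass, so that 75.3% passed beside 69.2% of all genes (34.6% higher and 34.6% lower). Their median log2 fold change was 0.35, against -0.01 over all genes. The split was also 38 to 17 with DESeq2's size factors, and 32 to 20 with library totals, which moved the median of all genes by -0.10. Under the stricter filter, which tested 69 of these genes and moved that median by -0.10, it was 29 to 21. It was 44 to 16 without low-glucose-tolerant replicate 2. In CoCl2-tolerant against control cells 18 rose, 9 fell and 46 did not pass (37.0%, beside 36.1% of all genes), and 17 genes in all passed when any 1 control library was left out.

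The list of other textbook HSF1 targets, which also holds the mitochondrial chaperonin genes HSPD1 and HSPE1 and the collagen chaperone SERPINH1, included the largest rises of the network in low-glucose-tolerant cells. There 7 of its 10 genes rose against control and the other 3 did not pass, beside 34.6% of all genes that rose and 34.6% that fell. ZFAND2A (AIRAP), which adapts the proteasome to damaged proteins, stood at 11.5, 10.3 and 10.6 CPM in control, 23.2, 21.0 and 21.0 CPM in CoCl2-tolerant and 68.6, 61.0 and 81.5 CPM in low-glucose-tolerant libraries. Its 3 groups were separate, and it rose in low-glucose-tolerant cells (log2 fold change 2.70 ± 0.13, edgeR adjusted p = 4.45e-10) and in CoCl2-tolerant cells (1.01 ± 0.13, adjusted p = 3.73e-05). CLU, the extracellular chaperone clusterin, rose from 107 ± 6.10 CPM in control to 218 ± 10.1 CPM in CoCl2-tolerant and 512 ± 58.4 CPM in low-glucose-tolerant cells. The edgeR adjusted p was at most 7.88e-06 for these rises of CLU in either line. DEDD2, a death effector domain protein, rose from 10.8 ± 1.16 CPM to 38.9 ± 7.26 CPM in low-glucose-tolerant cells (1.84 ± 0.15, adjusted p = 7.9e-08), and at 13.8 ± 1.51 CPM in CoCl2-tolerant cells did not pass (adjusted p = 0.0891).

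J-domain proteins were mostly higher in low-glucose-tolerant cells, with 8 of 12 higher than control, 1 lower and 3 that did not pass. The share over all genes was 34.6% in each direction. DNAJB6, which suppresses the aggregation of polyglutamine proteins, rose from 109 ± 1.46 to 280.5 ± 7.84 CPM (log2 fold change 1.36 ± 0.10, edgeR adjusted p = 1.71e-08). DNAJA2 rose from 55.6 ± 0.771 to 108 ± 5.33 CPM and DNAJB4 from 16.1 ± 0.301 to 33.2 ± 6.24 CPM. DNAJB5 had opposite signs in the tolerant lines. It stood at 10.6 ± 1.12 CPM in control, fell to 6.91 ± 0.816 CPM in CoCl2-tolerant cells (-0.62 ± 0.14, adjusted p = 0.00289) and rose to 21.97 ± 1.51 CPM in low-glucose-tolerant cells (1.05 ± 0.13, adjusted p = 5.33e-06). DNAJC5, the cysteine string protein, rose in both, from 79.5 ± 3.96 to 115 ± 14.1 and 131 ± 11.5 CPM.

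Partners that release or redirect HSP70 clients were higher in low-glucose-tolerant cells for 6 of 8 genes and lower for 1. Among all genes 34.6% were higher and 34.6% lower. BAG1, a nucleotide exchange factor of HSP70, rose from 19.9 ± 0.576 CPM in control to 39.9 ± 1.81 CPM in CoCl2-tolerant cells (edgeR adjusted p = 2.16e-05) and 43.6 ± 6.10 CPM in low-glucose-tolerant cells (1.13 ± 0.12, adjusted p = 1.18e-06). The ubiquitin ligase STUB1 (CHIP), which marks HSP70 clients for degradation, rose from 30.4 ± 1.10 to 70.4 ± 11.9 CPM in low-glucose-tolerant cells, although 42.4% of its exon bases overlap JMJD8 on the opposite strand. HSPBP1, an inhibitor and exchange factor of HSP70, rose from 25.8 ± 0.610 to 40.8 ± 9.89 CPM there. BAG4 was the gene that fell, from 15.9 ± 0.446 to 11.7 ± 1.26 CPM.

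The HSP90 cochaperones were divided in low-glucose-tolerant cells, with 6 of 14 genes of that list higher, 7 lower and 1 that did not pass. All genes were divided too, with 34.6% higher and 34.6% lower. FKBP4, an immunophilin of steroid receptor complexes, rose from 95.9 ± 1.02 to 202 ± 28.4 CPM (log2 fold change 1.08 ± 0.11, edgeR adjusted p = 1.12e-06), and PTGES3 (p23), which stabilises the closed form of HSP90, from 196 ± 2.61 to 348 ± 50.3 CPM. CHORDC1 fell from 28.5 ± 2.27 CPM in control to 20.2 ± 2.59 CPM in CoCl2-tolerant and 13.1 ± 1.55 CPM in low-glucose-tolerant cells (-1.12 ± 0.13, adjusted p = 3.78e-06). FKBP5, a further immunophilin, fell in both lines, from 45.3 ± 0.808 to 30.9 ± 3.39 and 31.8 ± 2.79 CPM, and SUGT1 fell from 43.2 ± 1.83 to 31.7 ± 6.60 CPM in low-glucose-tolerant cells. In CoCl2-tolerant cells 1 gene of the list rose (PTGES3, to 277 ± 27.9 CPM) and 3 fell, beside 17.9% and 18.2% of all genes.

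The 8 listed relatives of HSP70 and HSP110 were divided. In low-glucose-tolerant cells 2 of 8 were higher than control (HSPA1L, described above, and HSPA13), 4 lower and 2 did not pass. Over all genes 34.6% were higher and 34.6% lower. HSPA12A, a divergent HSP70-like protein, fell from 356 ± 4.77 to 64.8 ± 11.97 CPM (log2 fold change -2.46 ± 0.13, edgeR adjusted p = 1.03e-09) and HSPA2, an HSP70 best known from male germ cells, from 20.2 ± 0.957 to 3.77 ± 0.540 CPM (-2.42 ± 0.14, adjusted p = 2.61e-09). HSPA2 also fell in CoCl2-tolerant cells, to 10.7 ± 1.05 CPM (-0.91 ± 0.13, adjusted p = 0.000103). HSPA14, which works at the ribosome, fell from 9.54 ± 0.707 to 5.10 ± 1.81 CPM in low-glucose-tolerant cells, with 17.4% of its exon bases under another gene model on the same strand, and HSPA13 rose from 33.3 ± 0.884 to 64.6 ± 15.5 CPM.

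Of the small heat shock proteins beside HSPB1, 2 of the 7 in the files passed the filter on low counts. HSPB8, the partner of BAG3, rose from 48.7 ± 1.69 CPM in control to 117 ± 4.26 CPM in CoCl2-tolerant cells (log2 fold change 1.27 ± 0.12, edgeR adjusted p = 2.71e-06) and 94.6 ± 15.0 CPM in low-glucose-tolerant cells (0.96 ± 0.12, adjusted p = 6.36e-06). CRYAB, alpha-B-crystallin, stood at 4.65 ± 0.665 CPM in control, fell to 1.91 ± 0.378 CPM in CoCl2-tolerant cells (-1.28 ± 0.19, adjusted p = 0.000151) and rose to 12.6 ± 1.83 CPM in low-glucose-tolerant cells (1.43 ± 0.16, adjusted p = 2.69e-06). Of its exon bases 20.6% overlap HSPB2 and a readthrough gene on the opposite strand.

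The cytosolic chaperonin and prefoldin, which fold actin and tubulin, had 5 of 14 genes higher in low-glucose-tolerant cells than in control. A further 3 were lower and 6 did not pass, beside 34.6% of all genes higher and 34.6% lower. Subunits of the same ring differed in sign: CCT4 rose from 195 ± 2.64 to 328 ± 45.1 CPM (log2 fold change 0.75 ± 0.11, edgeR adjusted p = 3.99e-05), and CCT5 fell from 503 ± 12.7 to 285 ± 32.7 CPM (-0.82 ± 0.11, adjusted p = 1.17e-05), with 30.1% of the CCT5 exon bases under a gene on the opposite strand. PFDN2 rose from 41.4 ± 1.89 to 141 ± 36.0 CPM (1.77 ± 0.17, adjusted p = 3.80e-07). In CoCl2-tolerant cells PFDN5 rose from 4.04 ± 0.147 to 6.85 ± 1.47 CPM (0.76 ± 0.18, adjusted p = 0.00498).

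Among factors and regulators other than HSF1, 2 of 5 tested genes rose in low-glucose-tolerant cells, 1 fell and 2 did not pass. Over all genes 34.6% rose and 34.6% fell. IER5, an immediate early protein that activates HSF1, rose from 14.6 ± 1.33 to 30.5 ± 5.55 CPM (log2 fold change 1.06 ± 0.17, edgeR adjusted p = 7.82e-05). Its relative IER5L rose in both lines, from 9.23 ± 0.0856 CPM to 27.1 ± 1.81 CPM in CoCl2-tolerant (1.55 ± 0.13, adjusted p = 6.69e-07) and 19.8 ± 2.85 CPM in low-glucose-tolerant cells. HSF4, the heat shock factor of the lens, rose from 13.8 ± 1.13 to 21.5 ± 2.87 CPM in CoCl2-tolerant cells (0.64 ± 0.14, adjusted p = 0.00277) and fell to 5.29 ± 0.815 CPM in low-glucose-tolerant cells (-1.38 ± 0.15, adjusted p = 1.49e-06), and a gene on the same strand covers 31.4% of its exon bases. In CoCl2-tolerant cells the calls of HSPA4L (log2 fold change 0.46), HSPA12A (-0.41), DNAJB6 (0.26), BAG4 (-0.43), BAG5 (0.28), PFDN2 (0.46) and IER5 (0.51) were lost when any 1 control library was left out.

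**Figure D5:**
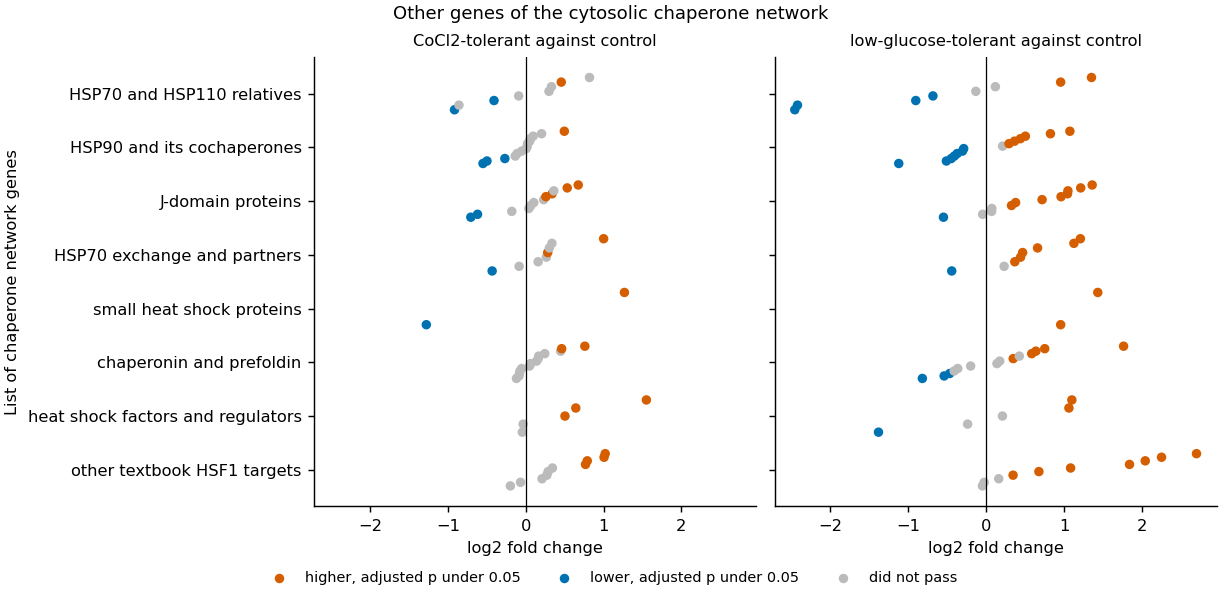
Log2 fold change against control of each tested gene in the 8 lists of other chaperone network genes, in CoCl2-tolerant (left) and low-glucose-tolerant cells (right), with 1 point per gene coloured by direction and edgeR adjusted p. In low-glucose-tolerant cells the other textbook HSF1 targets reach 2.70 (ZFAND2A), and the HSP90 list is split 6 to 7; the panels share the control libraries.

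Compared directly, the low-glucose-tolerant line had 26 of the 73 network genes higher than the CoCl2-tolerant line, 18 lower and 29 that did not pass. This is 60.3%, beside 63.9% of all genes (32.0% higher and 31.9% lower). The split was 20 to 20 with library totals and 19 to 20 under the stricter filter, and 33 to 17 without low-glucose-tolerant replicate 2. Among the largest differences upward were those in CRYAB (log2 fold change 2.71 ± 0.18), ZFAND2A (1.70 ± 0.12), DNAJB5 (1.67 ± 0.13), DEDD2 (1.499 ± 0.15) and PFDN2 (1.30 ± 0.17), each at an edgeR adjusted p of at most 9.15e-06. Downward they were in HSPA12A (-2.05 ± 0.13), HSF4 (-2.03 ± 0.15), HSPA2 (-1.51 ± 0.14), HSPA14 (-1.203 ± 0.19) and PFDN5 (-1.12 ± 0.19), each at an adjusted p of at most 0.000116.

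The search for heat shock elements was extended to the 68 other network genes in the RefSeq table, of which 6 had an exact match and 22 a match with at most 1 different base (32.4%, beside 7.60% of all genes). The exact matches were in HSP90AB1, DNAJA1, DNAJB6, HSPD1, SERPINH1 and CHORDC1. In low-glucose-tolerant against control cells, 14 of the 21 tested genes with such a match rose (66.7%), 4 fell and 3 did not pass. Of the 40 tested genes without one, 16 rose (40.0%), 10 fell and 14 did not pass, beside 34.6% of all genes that rose. In CoCl2-tolerant against control cells the genes that rose were 8 of 21 (38.1%) and 7 of 40 (17.5%), beside 17.9% of all genes. The lists include textbook HSF1 targets and were chosen with earlier results of these data known. These shares are descriptions and the difference between them was not tested.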

How the data were processed

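Messenger RNA extracted from total RNA was sequenced on an Illumina NovaSeq, per the labels' protocols. The authors deposited raw counts of reads per gene and library, made with featureCounts on GRCh38 per the submitters' processing notes, which also name DESeq2. The aligner, annotation release, strand setting and handling of multi-mapping reads are each not given in the sources used here. Symbols came from a gene name table for 35938 of 36018 identifiers and from GENCODE release 29 for 76 more, and exon lengths, positions and overlaps from the same release (34888 genes).

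From the deposited counts, CPM used library totals times TMM factors. Genes passing filterByExpr by group (17902) were fitted in edgeR 4.0.16 (R 4.3.3) with the quasi-likelihood F test over all 9 libraries, 1 mean per group and no covariate. P-values were adjusted over all genes by the Benjamini-Hochberg method and called under 0.05. The standard error is the size of the log2 fold change divided by the square root of F. Likeness used log2 CPM with a prior count of 2. The fit was tested on simulated counts with 200 changed genes. It recovered 47.8% of the 1.5-fold and 91.3% of the 2-fold changes in CoCl2-tolerant against control (17429 genes), and 44.4% and 97.3% in low-glucose-tolerant against control (17397 genes). Of its calls, 5.39% and 2.4% were false in the same order. The simulation gave all groups 1 starting level per gene and 1 trend of spread. In the data 36.1% and 69.2% of genes passed in these comparisons, and replicate pairs differed more in the tolerant groups than in control. The recovered shares therefore need not hold in the data.

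Members and lists were chosen with earlier results of these data known. Named genes are the members, HSPA7, HSPA1L, HSF2, HSP90AB1, the called genes with the largest changes (up to 3 for a list in a comparison, at 5 CPM or more in the higher group), and the 5 genes most like HSPA6, pseudogenes apart. Some genes that this rule names are not reported here. Alternatives were DESeq2 1.42.0, edgeR with DESeq2's size factors or plain library totals, fits of every counted gene or of genes with 5 CPM in 3 libraries (the stricter filter), fits of only the 2 groups compared, a replicate block, near copies summed and each library left out.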

Additional observations from a re-analysis of the deposited data

How the results depend on the processing

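The count of 1 member called in CoCl2-tolerant against control cells was the least stable: it became 3 when only the 2 groups were fitted (HSPA6 then dropped out, leaving 9 members), 0 with a replicate block, and 0 to 3 when single libraries were left out. The 27 other network genes called there became 17 to 32 when single libraries were left out, with 17 without control replicate 1, 2 or 3, and 24 with the replicate block. The block gave 52 of the network genes in low-glucose-tolerant against control cells (55 without it) and 41 against CoCl2-tolerant cells (44). Same-numbered libraries had residual correlations of -0.26 to 0.124, others of -0.242 to 0.205, and the numbers were treated as names only. No fold change that passed its test changed sign. Of the named network genes, the only ones followed one by one, BAG6 lost its call in low-glucose-tolerant against control cells under some settings, and BAG5, HSF2, PFDN5 and VBP1 gained one. The direct comparison of tolerant lines lost HSPB8, HSPBP1, IER5, PTGES3 or SUGT1 without some single library and gained DNAJB4, DNAJC5 or HSPA1L without others. With all libraries kept, it also lost HSPBP1 and PTGES3 with library totals and under the stricter filter. With no filter it lost HSPB8 and gained DNAJB4. HSPB8, HSPBP1 and PTGES3 were lost as well when only the 2 groups compared were fitted. Depth limits HSPA6 in control and CoCl2-tolerant cells, where it rests on 24 and 28 counts. Leaving out 1 low-glucose-tolerant library let BAG3, HSPA1B or HSPB1 pass in CoCl2-tolerant against control cells, and the cause was not tested.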
